A study of Mus musculus with 11 samples.

Results

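Genes of the transforming growth factor beta (TGF-beta), activin and follistatin group were described over 3 postnatal ages in sorted mouse muscle cells. The members were chosen by name: Tgfb1, Tgfb2, Tgfb3, Tgfbr1, Tgfbr2, Tgfbr3, Mstn, Inhba, Fst and Fstl1, with every probe set that the platform annotation assigns to 1 of these symbols alone. That gave 21 probe sets of 9 genes, out of 45037 probe sets tested and 18193 genes measured. Mstn, which encodes myostatin, had no such probe set and was not analysed here. Cells positive for green fluorescent protein (GFP) were sorted by flow cytometry from Pax3GFP/+ mice on a C57BL/6J background with GFP expressed from the Pax3 locus, and propidium iodide was used to leave out dead cells. The groups were P1 (postnatal day 1, 4 arrays), P12 (day 12, 4 arrays) and P28 (day 28, 3 arrays), and all of them carried the GFP allele. The P1 and P12 cells came from trunk muscle and are labelled as proliferating satellite cells, while the P28 cells are labelled as satellite cells, without the word proliferating, and came from intercostal, pectoral and abdominal muscle. The labels call the arrays biological replicates but give no number of animals for an array, so the p-values measure the spread between arrays.

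TGF-beta ligands are secreted as latent dimers, are released from their propeptide and binding proteins, and signal through a pair of type II and type I receptor kinases to the Smad2 and Smad3 transcription factors. Myostatin and activins use related receptors and the same Smads, and follistatin binds and neutralises them. In skeletal muscle, myostatin is known as a brake on growth, follistatin as a promoter of it, and TGF-beta as an inhibitor of myoblast differentiation and a driver of matrix production.

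Array medians lay between 5.50 and 5.58 on the log2 scale, and the bacterial Trp controls, which mark background, lay between 3.04 and 3.96. The satellite cell genes Pax7 (means 10.75, 10.78 and 10.72 at P1, P12 and P28) and Pax3 (8.29, 8.60 and 8.48) were well above background at every age. The Gapdh control for RNA quality, the 3′ minus the 5′ log2 signal, averaged 2.17 ± 0.60 at P1, 2.10 ± 0.88 at P12 (SD, n = 4 each) and 0.90 ± 0.10 at P28 (SD, n = 3). The female-specific transcript Xist was high in 1 of the 4 P1 arrays and in all 7 P12 and P28 arrays, so sex and age were not balanced. The internal names of the P28 arrays conflict with their titles: they carry the age code of the P1 arrays and another suffix, and the titles and the stated age were followed here. The Gapdh difference of the P28 arrays (0.79 to 0.99) did not overlap that of the P1 and P12 arrays (1.32 to 3.05). For P28, therefore, the age, the label as proliferating or not, the muscles sampled, the RNA quality and a possible batch cannot be told apart.

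Between successive ages the group changed little at first and then in many members. In P12 against P1, 0 of the 21 probe sets rose, against 3.25% of all probe sets tested, and 2 fell, against 1.59% (4.84% of all changed in either direction). Both of those belong to Fst. In P28 against P12, 10 rose (47.6%), against 13.5% of all probe sets, and 4 fell (19.0%), against 15.9% (29.4% in either direction). The share of probe sets that fell was thus near the background and the share that rose was above it. The 4 that fell all belong to Tgfb2 and the 10 that rose belong to 6 genes, so these shares count some genes several times. In P28 against P1, 9 rose, against 17.6% of all probe sets, and 4 fell, against 17.4% (35% in either direction). A call is an adjusted p under 0.05 in limma's moderated test, adjusted by the Benjamini-Hochberg method over all 45037 probe sets. The limma F test for any difference among ages called 13 of the 21 probe sets, against 36.3% of all, and these belong to 7 genes. The median log2 change of the 21 probe sets was -0.10, 0.42 and 0.32 in the 3 comparisons, against 0.01, -0.05 and -0.05 over all probe sets tested. The comparisons share arrays and are not independent of each other.

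**Figure D1:**
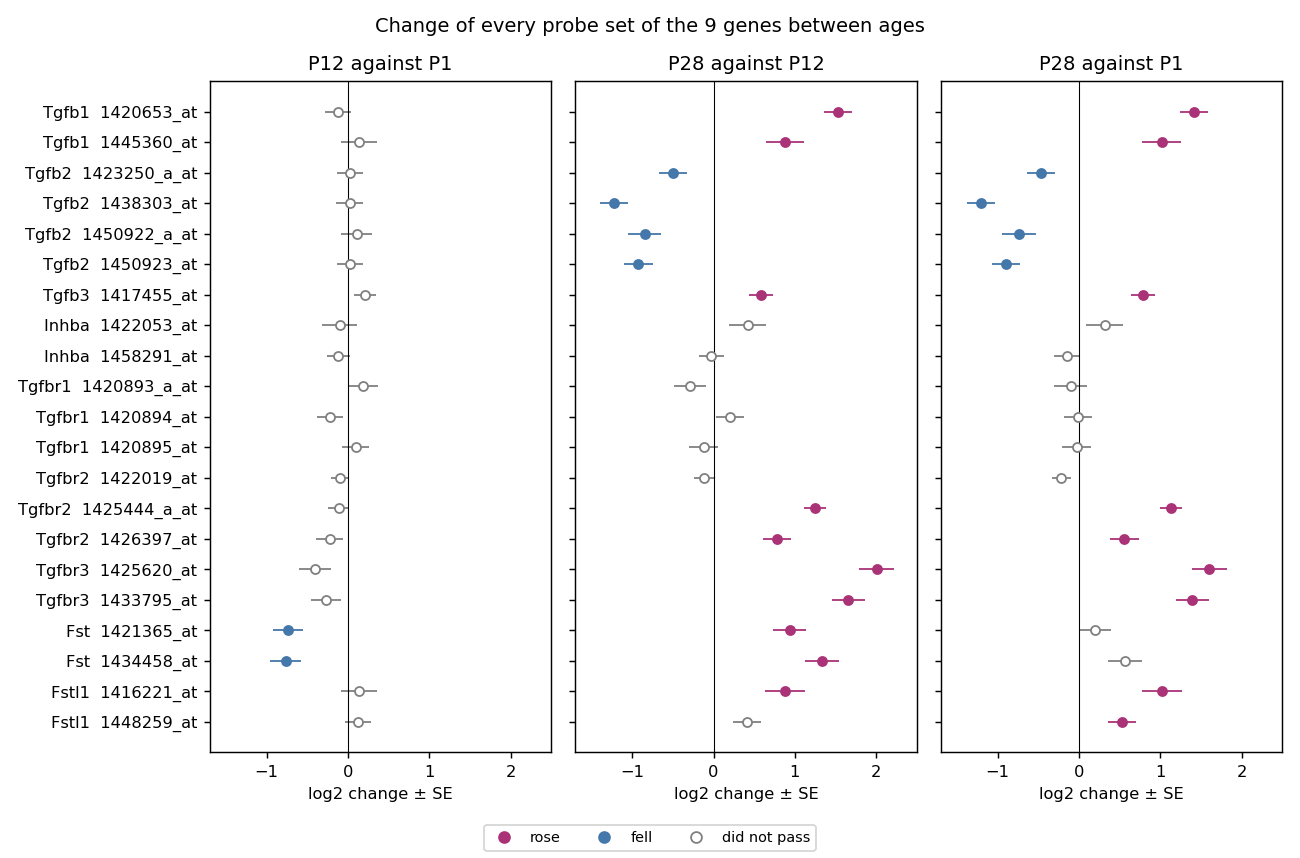
Log2 change of each of the 21 probe sets (rows) between ages, with its SE from the limma fit, with the panels in the order P12 against P1, then P28 against P12, then P28 against P1. Filled points passed at an adjusted p under 0.05. In the first panel only the 2 Fst probe sets are filled, and in the other panels all 4 Tgfb2 probe sets lie below 0 while Tgfb1, Tgfb3, Tgfbr3 and 2 of 3 Tgfbr2 probe sets lie above it.

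Promoters are shown for the 4 genes with a call that the RefSeq table held, because their probe sets took different directions at P28. The table held 7 of the 10 genes and lacked Tgfb3, Tgfbr3 and Fst. Each sequence runs 5′ to 3′ on the gene's strand from 250 bases before to 50 bases after the annotated start, in build GRCm38.p6 of RefSeq. Capitals mark matches, on either strand, to a Smad box (CAGAC), an AP-1 site (TGACTCA), the TATA element (letters TATAAA) or an E-box (CAGCTG). The Tgfb1 promoter is chr7:25686752-25687051 on the plus strand, Tgfb2 is chr1:186705940-186706239 on the minus strand, Tgfbr2 is chr9:116175314-116175613 on the minus strand and Fstl1 is chr16:37776805-37777104 on the plus strand.
Tgfb1: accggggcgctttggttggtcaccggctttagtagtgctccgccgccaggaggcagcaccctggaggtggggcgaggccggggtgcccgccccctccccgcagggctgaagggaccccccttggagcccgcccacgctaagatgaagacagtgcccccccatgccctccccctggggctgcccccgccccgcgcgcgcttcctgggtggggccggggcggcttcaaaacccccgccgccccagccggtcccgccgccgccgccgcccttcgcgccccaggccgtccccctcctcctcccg
Tgfb2: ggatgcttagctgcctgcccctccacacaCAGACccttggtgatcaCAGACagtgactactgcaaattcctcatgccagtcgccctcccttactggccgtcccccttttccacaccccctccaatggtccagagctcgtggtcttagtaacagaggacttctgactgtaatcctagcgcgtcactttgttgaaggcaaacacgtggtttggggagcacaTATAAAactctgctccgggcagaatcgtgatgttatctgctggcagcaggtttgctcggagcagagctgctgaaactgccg
Tgfbr2: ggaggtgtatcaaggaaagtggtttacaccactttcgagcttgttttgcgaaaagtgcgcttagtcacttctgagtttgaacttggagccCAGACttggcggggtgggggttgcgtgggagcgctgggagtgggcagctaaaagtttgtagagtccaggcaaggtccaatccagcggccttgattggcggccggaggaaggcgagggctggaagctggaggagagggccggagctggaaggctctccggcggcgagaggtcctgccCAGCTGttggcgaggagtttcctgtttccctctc
Fstl1: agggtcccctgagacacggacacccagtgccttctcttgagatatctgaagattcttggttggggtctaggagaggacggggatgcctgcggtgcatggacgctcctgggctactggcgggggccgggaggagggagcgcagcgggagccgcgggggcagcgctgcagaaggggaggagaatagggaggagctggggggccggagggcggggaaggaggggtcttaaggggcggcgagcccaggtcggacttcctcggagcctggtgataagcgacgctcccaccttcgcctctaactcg

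The Tgfb2 window held CAGAC 221 and 204 bases before the start and TATAAA 31 bases before it. The Tgfbr2 window held CAGAC 160 bases before the start and CAGCTG 17 bases after it, and the Tgfb1 and Fstl1 windows held none of the 4 motifs. GC content was 77.0% for Tgfb1, 66.7% for Fstl1, 59.0% for Tgfbr2 and 54.3% for Tgfb2, against a median of 52.7% over 32851 promoters. Of those promoters, 49.6% held CAGAC, 13.6% TATAAA, 16.3% CAGCTG and 5.2% TGACTCA, so a match to CAGAC is common in windows of this length. The matches are letters in the sequence, and binding was not measured.

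Among the ligands, Tgfb1 and Tgfb3 rose at P28 and Tgfb2 fell. Tgfb1 encodes the most widely studied isoform, abundant in immune cells and platelets. Its brighter probe set, 1420653_at, had log2 values of 5.73, 6.43 and 6.38 at P28, against 4.66, 4.56, 4.86 and 4.51 at P12. The P1 values were 4.95, 4.77, 4.53 and 4.82. All P28 arrays lay above all others, and P1 and P12 overlapped. The change was 1.53 ± 0.17 (SE; limma adjusted p = 2.43e-05), or 2.89-fold, in P28 against P12, and 1.41 ± 0.17 (adjusted p = 3.15e-05) in P28 against P1. The change of -0.12 ± 0.16 in P12 against P1 did not pass. The second probe set, 1445360_at, had 5.19, 6.34 and 5.58 at P28, against 5.20, 4.91, 4.78 and 4.41 at P12, so the lowest P28 array was just under the highest P12 array. At P1 it had 4.83, 4.80, 4.46 and 4.67, all below P28. Its change of 0.88 ± 0.24 passed (adjusted p = 0.0127), but without P28 replicate 2 it was 0.56 (adjusted p = 0.0666).

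Tgfb2, an isoform known for its roles in heart, palate and eye development, was the only member gene whose calls at P28 were all decreases. Its brightest probe set, 1450923_at, had 9.69, 9.42 and 9.61 at P28, against 10.44, 10.97, 10.44 and 10.12 at P12. The P1 values were 10.37, 10.72, 10.35 and 10.43. The P28 arrays lay below all others, and P1 and P12 overlapped. It fell by 0.92 ± 0.18 on the log2 scale in P28 against P12 (adjusted p = 0.0014), which is 1.90-fold lower. The other probe sets had mean levels of 6.16 at P28, against 7.39 at P12 (1438303_at), 8.60 at P28, against 9.44 at P12 (1450922_a_at) and 8.62 at P28, against 9.11 at P12 (1423250_a_at). Their changes were -1.23 ± 0.17 (adjusted p = 0.000156), -0.85 ± 0.21 (adjusted p = 0.00701) and -0.50 ± 0.17 (adjusted p = 0.0436). All 4 probe sets had every P28 array below every P12 and every P1 array. In P28 against P1 the changes were -0.90 (1450923_at), -1.21 (1438303_at), -0.74 (1450922_a_at, which was -0.61 and did not pass without P28 replicate 1) and -0.47 (1423250_a_at, adjusted p = 0.0482, which did not pass without P1 replicates 1, 2 or 4, P12 replicates 1 or 3 or P28 replicates 1 or 2, at -0.50 to -0.33, nor with median centring, at -0.43). RNA quality moved with this result: with the Gapdh 3′ minus 5′ difference as a covariate, 1438303_at (-0.93) and 1450923_at (-0.60) still passed, while 1450922_a_at (-0.48) and 1423250_a_at (-0.24) did not. In P28 against P1, 1450923_at did not pass with that covariate either (-0.55, adjusted p = 0.0512). Every P28 array had a smaller Gapdh difference than any P1 or P12 array, so this fit cannot separate RNA quality from age. The call of 1423250_a_at also ended in a fit of the P12 and P28 arrays alone (-0.50), without P1 replicate 4 (-0.50), P12 replicates 2 (-0.36) or 3 (-0.50), or P28 replicates 1 (-0.36) or 2 (-0.53).

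Tgfb3, an isoform known for palate closure and made by many mesenchymal cells, had 9.56, 9.26 and 9.48 at P28, against 8.99, 9.01, 8.68 and 8.73 at P12. The P1 values were 8.86, 8.80, 8.40 and 8.53. All P28 arrays lay above all others. Its only probe set, 1417455_at, rose by 0.58 ± 0.15 in P28 against P12 (adjusted p = 0.00915) and by 0.79 ± 0.15 in P28 against P1 (adjusted p = 0.000953). Inhba encodes the beta A subunit of activin A. Both of its probe sets lay above the highest Trp control on all 11 arrays, and neither passed in any comparison. Probe set 1422053_at had 6.15, 5.36 and 6.44 at P28, against 5.66, 5.22, 5.49 and 5.89 at P12, which overlapped. Its change of 0.42 ± 0.23 (adjusted p = 0.193) became 0.73 (adjusted p = 0.0163) without P28 replicate 2. Probe set 1458291_at averaged 4.94, 4.81 and 4.78 at P1, P12 and P28.

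**Figure D2:**
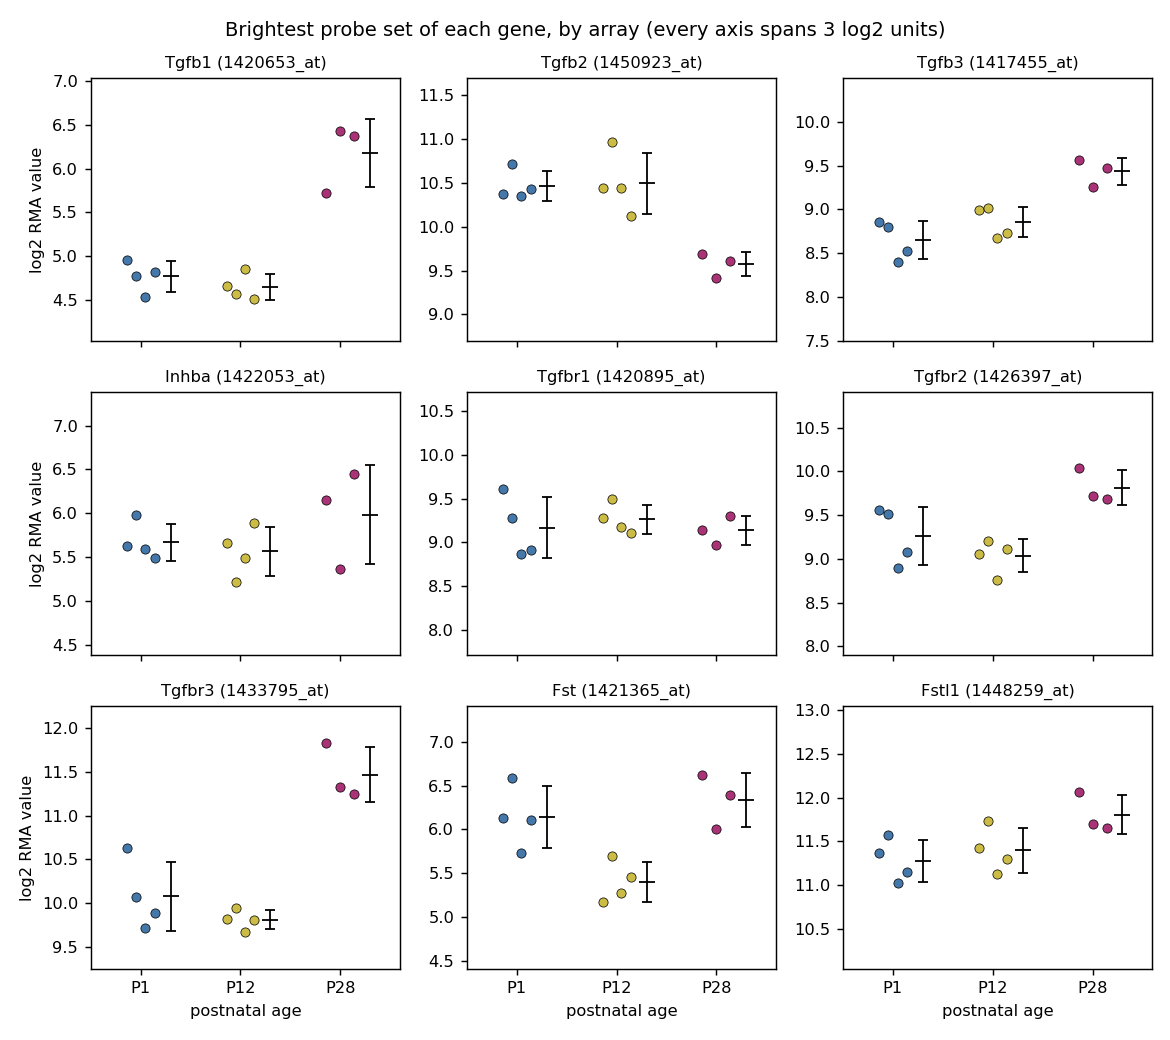
Log2 RMA value of the brightest probe set of each of the 9 genes by array (points), with the mean and SD at P1 (4 arrays), P12 (4 arrays) and P28 (3 arrays). Each vertical axis spans 3 log2 units. The P28 points of Tgfb1, Tgfb3, Tgfbr2 and Tgfbr3 lie above all others, those of Tgfb2 below, and the P12 points of Fst below those of both other ages.

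Among the receptors, the largest increases were in Tgfbr3, which encodes betaglycan, a co-receptor that presents TGF-beta ligands, TGF-beta2 in particular, to the type II receptor and also binds inhibin. Probe set 1433795_at had 11.83, 11.32 and 11.25 at P28, against 9.82, 9.94, 9.67 and 9.81 at P12. The P1 values were 10.63, 10.07, 9.72 and 9.88. The P28 arrays lay above all others, and P1 and P12 overlapped. The change was 1.66 ± 0.20 in P28 against P12 (adjusted p = 4.43e-05), or 3.15-fold, and 1.39 ± 0.20 in P28 against P1 (adjusted p = 0.000121). Probe set 1425620_at had 9.65, 9.10 and 8.92 at P28, against 7.49, 7.0, 6.99 and 7.37 at P12, with no overlap. The P1 values of 7.13, 7.89, 7.85 and 7.62 lay below P28 as well. The change in P28 against P12 was 2.01 ± 0.21 (adjusted p = 1.6e-05), or 4.02-fold.

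Tgfbr2, the type II receptor kinase that binds TGF-beta ligands first, also rose. Probe set 1426397_at had 10.04, 9.72 and 9.68 at P28, against 9.06, 9.20, 8.76 and 9.11 at P12. The P1 values of 9.55, 9.52, 8.89 and 9.08 lay below the P28 values too. The change in P28 against P12 was 0.78 ± 0.18 (adjusted p = 0.00453), or 1.72-fold. The smaller change in P28 against P1, 0.56 ± 0.18 (adjusted p = 0.0255), did not pass without P1 replicate 3 (0.43), P1 replicate 4 (0.49) or P28 replicate 1 (0.44), nor after quantile normalization (0.35). Probe set 1425444_a_at had 7.07, 6.99 and 7.04 at P28, against 5.69, 5.70, 5.88 and 5.88 at P12, a change of 1.24 ± 0.14 (adjusted p = 2.16e-05). At P1 it had 6.24, 5.82, 5.66 and 5.89. The P28 arrays were close together for this probe set and well above every other array. The third probe set, 1422019_at, averaged 3.38, 3.28 and 3.16 at P1, P12 and P28, below the highest Trp control, and was not above background.

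Tgfbr1, the type I receptor kinase that phosphorylates Smad2 and Smad3, passed in no comparison, and did so under none of the alternatives run. Its brightest probe set, 1420895_at, averaged 9.17, 9.26 and 9.14 at P1, P12 and P28. The 95% interval of its change in P28 against P12 was -0.50 to 0.25, so a change of the size seen in Tgfbr3 lay outside it. The other probe sets averaged 6.41, 6.19 and 6.40 (1420894_at) and 6.08, 6.26 and 5.97 (1420893_a_at).

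Fst, which encodes follistatin, the secreted antagonist of activins and myostatin, was lowest at P12. Probe set 1421365_at had 5.17, 5.70, 5.28 and 5.46 at P12, against 6.13, 6.59, 5.73 and 6.11 at P1. Probe set 1434458_at had 5.10, 4.66, 4.51 and 4.20 at P12, against 5.26, 5.56, 5.52 and 5.20 at P1. For both probe sets every P12 array lay below every P1 array, by a narrow gap. The changes were -0.74 ± 0.19 (adjusted p = 0.0361) and -0.77 ± 0.19 (adjusted p = 0.0364), or 1.67-fold and 1.70-fold lower. With the replicate number as a block the values were the same and the adjusted p was 0.0510 for 1421365_at and 0.0257 for 1434458_at. Within the arrays of high Gapdh 3′ to 5′ difference (replicates 1 and 2) the changes were -0.93 and -0.53, and within the others (replicates 3 and 4) -0.55 and -1.01. The direction held with each array left out in turn, but the calls depended on which was left out. That of 1421365_at ended without P1 replicates 1 (-0.74), 2 (-0.59) or 4 (-0.75) or P12 replicates 1 (-0.66), 3 (-0.70) or 4 (-0.76). That of 1434458_at ended without P1 replicates 2 (-0.71), 3 (-0.72) or 4 (-0.83) or P12 replicates 2 (-0.78), 3 (-0.73) or 4 (-0.63).

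At P28, Fst was higher again. Probe set 1421365_at had 6.62, 6.00 and 6.39 at P28 and 1434458_at had 6.38, 5.67 and 5.80, all above the P12 values. The changes in P28 against P12 were 0.94 ± 0.20 (adjusted p = 0.00314) and 1.33 ± 0.21 (adjusted p = 0.000341). Against P1 they were 0.20 ± 0.20 (adjusted p = 0.486) and 0.56 ± 0.21 (adjusted p = 0.0508), and neither passed, although for 1434458_at every P28 array lay above every P1 array. The second of these passed under 10 of the alternatives, with values from 0.56 to 0.87.

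Fstl1 encodes a secreted glycoprotein of the follistatin-related family, abundant in mesenchymal cells. Probe set 1448259_at had 12.07, 11.70 and 11.65 at P28, against 11.43, 11.74, 11.13 and 11.30 at P12, which overlapped, and its change of 0.41 ± 0.17 did not pass (adjusted p = 0.094). It passed with the 3′ to 5′ covariate (0.78), after quantile normalization (0.40), as the mean of both probe sets (0.64) and without P12 replicate 2 (0.52). Against P1 (11.37, 11.57, 11.02 and 11.15) the change of 0.53 ± 0.17 passed (adjusted p = 0.0287), but not without P1 replicates 3 (0.44) or 4 (0.49) or P28 replicate 1 (0.40), nor after quantile normalization (0.25). Probe set 1416221_at had 11.64, 11.11 and 11.17 at P28, against 10.63, 10.76, 10 and 10.33 at P12. At P1 it had 10.53, 10.83, 9.81 and 9.99. Its P28 values lay above all P12 and P1 values, and the change of 0.88 ± 0.24 passed (adjusted p = 0.0146), but was 0.71 (adjusted p = 0.0703) without P28 replicate 1.

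Log2 values of different probe sets are not comparable in abundance, so no order of levels between genes is given. By the root mean square difference of centred values over the 11 arrays, the genes most like Tgfb1 were Il4ra (0.145) and Elk3 (0.150), and those most like Tgfb2 were Daam1 (0.106) and Nemp2 (0.113). Tgfb3 was closest to Mical1 (0.0444), Tgfbr3 to Gja1 (0.141), Tgfbr2 to Plekha3 (0.0958) and Fstl1 to Mcl1 (0.0952). The nearest to Fst was Scarf2 (0.217), whose means were 7.01, 6.23 and 6.90 at P1, P12 and P28, a dip at P12 like that of Fst. These are the smallest differences among all genes measured and carry no test.

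Of 70 other genes of the pathway, 67 were measured, with 138 probe sets. In P28 against P12, 57 of these rose and 18 fell, with a median log2 change of 0.26. In P12 against P1, 8 rose (5.8%) and 4 fell (2.9%), against 3.25% and 1.59% of all probe sets. Genes known as transcriptional targets of TGF-beta had the largest share of rises: in P28 against P12, 17 of their 25 probe sets rose and 2 fell, with a median of 1.27. By gene, 9 of the 12 had a probe set that rose, and Ccn1 had 2 of 4 that fell. The share of all genes with any probe set that rose was not counted. Some target genes, such as Tgfbi and Timp3, enter the probe set count several times. The ligands and inhibins counted 2 rises and 1 fall of 8 probe sets, the receptors and co-receptors 7 and 2 of 19, the extracellular inhibitors and binding proteins 10 and 4 of 29, the activation and processing genes 12 and 4 of 27, and the Smads and cofactors 9 and 5 of 30. The background of 13.5% and 15.9% applies to each of these shares in P28 against P12.

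**Figure D3:**
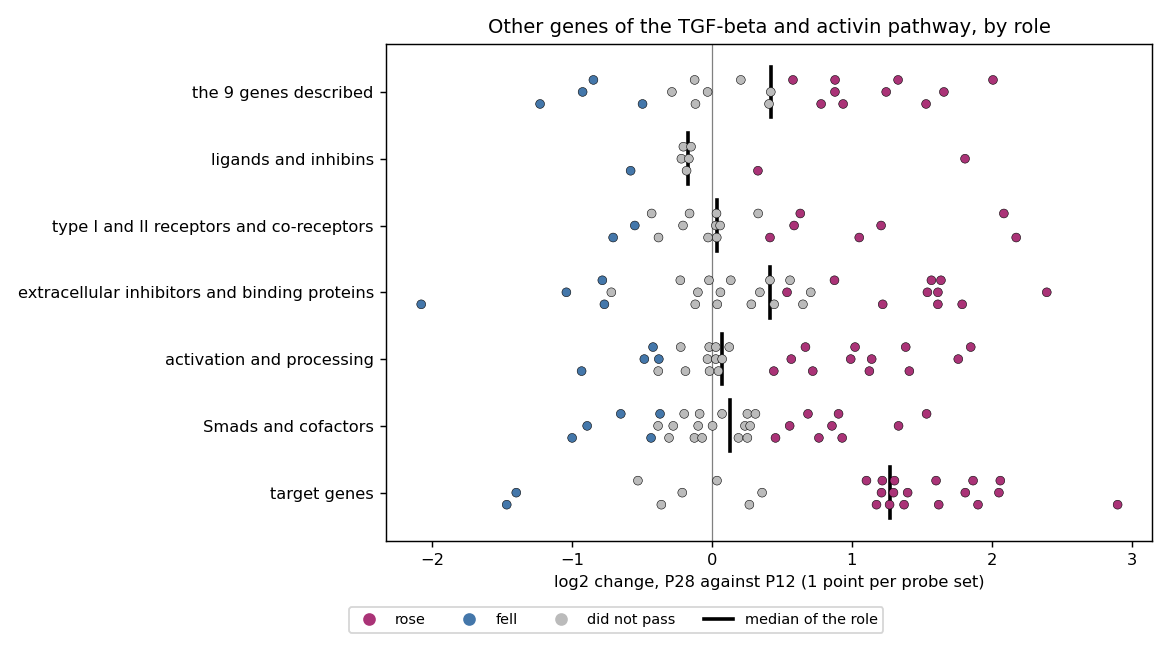
Log2 change in P28 against P12 for the probe sets of the 9 genes (first row) and of 67 other pathway genes by role, 1 point per probe set, coloured by the limma call, with the median of each role as a bar. The target genes have a median of 1.27, while the medians of the other roles lie between -0.17 and 0.42.

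The largest increases in P28 against P12 were in Ccn2 (2.90 ± 0.40, adjusted p = 0.000117), the connective tissue growth factor, and Dcn (2.39 ± 0.20, adjusted p = 1.68e-06), a matrix proteoglycan that binds TGF-beta. A second Dcn probe set, 1441506_at, was dim, with means of 4.38 at P12 and 4.41 at P28. Eng, the co-receptor endoglin, rose by 2.17 ± 0.17 (adjusted p = 1.37e-06), and Bambi, a decoy receptor, by 2.09 ± 0.18 (adjusted p = 3.36e-06). The means of the other Eng probe set, 1432176_a_at, were closer together, at 6.47 at P12 and 7.10 at P28. Falls were found in Tgif2 (-1.0 ± 0.18), a Smad co-repressor, and Itgb8 (-0.93 ± 0.19), an integrin chain that takes part in releasing active TGF-beta. Ccn1, a matricellular gene, fell in 2 of 4 probe sets (-1.47 ± 0.21 and -1.40 ± 0.21), while its brighter probe sets did not pass (-0.53 ± 0.21 and -0.21 ± 0.21), so no direction is given for the gene. For Ltbp3, a latent TGF-beta binding protein, 2 probe sets were called lower and another rose by 0.54 ± 0.15, so none is given either. Of the lower ones, 1456189_x_at changed by -1.04 ± 0.17, and 1437833_at averaged 3.80 at P28, against 5.88 at P12, where the P28 mean is below the highest Trp control and gives only a bound. In P28 against P1 the largest increases were in Ccn2 (3.44 ± 0.40), Tgfbi (3.03 ± 0.17), a secreted matrix protein, Pmepa1 (2.76 ± 0.16), a feedback inhibitor of Smad signalling, and Plat (2.69 ± 0.22), tissue plasminogen activator. The other Plat probe set, 1458553_at, averaged 4.77 at P1 and 4.89 at P28. Decreases in P28 against P1 included Itgb8 (-1.64 ± 0.19) and Inha (-1.03 ± 0.18), the inhibin alpha subunit. Ccn1 again fell in 2 probe sets (-1.36 and -1.34) and did not pass in the brighter ones (-0.13 and 0.19).

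Some of the target genes had moved by P12. In P12 against P1, Pmepa1 rose by 1.09 ± 0.15 (adjusted p = 0.00149; 2 of its 3 probe sets passed) and Tgfbi by 0.97 ± 0.15 (adjusted p = 0.00325; 1 of 4 passed, the others lying between 0.42 and 0.67). Cd109, which encodes an inhibitor of TGF-beta receptors, rose by 1.34 ± 0.19 (adjusted p = 0.00165; its other probe set, at 1.01, did not pass). For the latent binding protein Ltbp1, 1 of 3 probe sets was called lower (1447547_at, adjusted p = 0.00165), with a mean of 3.78 at P12, against 4.93 at P1. The P12 mean is below the highest Trp control and gives only a bound, and the other Ltbp1 probe sets did not pass (-0.57 and -0.43). The other named changes, in Tgif1 (0.86 ± 0.23), Postn (-0.83 ± 0.19), Itgb8 (-0.70 ± 0.18) and Ltbp3 probe set 1456189_x_at (-0.60 ± 0.16), did not pass with some arrays left out. For Tgif1 this held without P1 replicates 2, 3 or 4, any P12 array or P28 replicate 2 (0.72 to 0.90), and for Postn without P1 replicate 2 or P12 replicates 1 or 4 (-0.78 to -0.70). For Itgb8 it held without P1 replicates 1, 3 or 4 or P12 replicates 1, 3 or 4 (-0.73 to -0.53), and for Ltbp3 without P1 replicates 2 or 4 or any P12 array (-0.68 to -0.49). With the replicate number as a block, Tgif1 (0.86) and Ltbp3 (-0.60) did not pass. The other Ltbp3 probe sets were not called in P12 against P1. Their means at P1 and P12 were 11.24 and 11.44 (1438312_s_at), 8.78 and 9.08 (1418049_at), and 6.41 and 5.88 (1437833_at). No direction is therefore given for Ltbp3 in this comparison.

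Inhbb, Fstl3, Smad7, Acvr1b, Acvr2a and Acvr2b were outside the rule for naming genes and were chosen after their values were seen, because they encode the activin side of the pathway or its inhibitors. Inhbb, the beta B subunit of activin, rose by 1.81 ± 0.27 in P28 against P12 (1426858_at, adjusted p = 0.000236). Its other probe set, 1426859_at, rose by 0.33 ± 0.11 (adjusted p = 0.0373), a call lost under 13 of 20 alternatives. Fstl3, a follistatin-like antagonist, rose by 1.61 ± 0.16 (adjusted p = 9.95e-06), and Smad7, the inhibitory Smad, by 0.93 ± 0.15 (adjusted p = 0.000432). Among the activin receptors, the type I receptor Acvr1b rose by 0.59 ± 0.13 (1433725_at, adjusted p = 0.00346). Its other probe set, 1422098_at, did not pass (0.03 ± 0.14). The type II receptors Acvr2a and Acvr2b each had a probe set that fell, by 0.55 ± 0.17 (adjusted p = 0.0283) and 0.71 ± 0.23 (adjusted p = 0.0310), and with the 3′ to 5′ covariate these were -0.48 and -0.44 and did not pass. The Acvr2a call also ended without P12 replicates 2 or 3 or P28 replicates 1 or 2 (-0.57 to -0.46). The Acvr2b call ended without P12 replicates 1, 2 or 3 or P28 replicates 2 or 3 (-0.71 to -0.51). These calls were those of 1451004_at (Acvr2a) and 1440525_at (Acvr2b). The other Acvr2a probe set, 1437382_at, did not pass (-0.38, adjusted p = 0.102). Nor did the other Acvr2b probe sets, 1439856_at (-0.43, adjusted p = 0.0538) and 1419140_at (-0.21, adjusted p = 0.378).

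Markers of other cell types moved at the same step, counted here at the brightest probe set of each gene. Of all probe sets tested, 13.5% rose and 15.9% fell in P28 against P12, and 3.25% and 1.59% in P12 against P1. In a fit with the brightest probe set of every gene, 2860 genes rose and 2856 fell in P28 against P12. In P12 against P1 these were 824 and 371. In P28 against P12, the myofibre list had 8 of 8 genes that rose (list means per array 12.06 to 12.53 at P28, against 8.99 to 10.17 at P12) and the neutrophil list 6 of 6 (9.95 to 11.27 at P28, against 5.65 to 6.50 at P12). The endothelial list had 7 of 8 (8.01 to 8.84 at P28, against 6.28 to 7.03 at P12), the macrophage list 5 of 8 (6.96 to 8.09 at P28, against 5.82 to 6.42 at P12) and the fibro-adipogenic list 4 of 7 (10.67 to 11.38 at P28, against 9.69 to 10.07 at P12), the last of which holds Dcn. The pericyte and smooth muscle list had 4 of 6 (9.15 to 9.38 at P28, against 7.90 to 8.46 at P12), the erythroid list 2 of 2 (8.97 to 11.36 at P28, against 5.97 to 6.62 at P12), the mast cell list 4 of 5 (5.10 to 5.61 at P28, against 4.61 to 4.76 at P12) and the Schwann cell and melanocyte list 0 of 4. The satellite cell list had 2 of 8 (10.09 to 10.38 at P28, against 9.61 to 9.94 at P12), Chrdl2 (2.70) and Calcr (0.59). Its other genes did not pass and lay between -0.12 (Pax3) and 0.28 (Myf5), with Pax7 at -0.06. P28 replicate 1 was the highest P28 array for the fibro-adipogenic, satellite cell and erythroid lists. It was also the highest for Tgfb3, Tgfbr3, Fst, Fstl1 and Tgfbr2 1426397_at and 1425444_a_at. It was the lowest for the myofibre, endothelial and macrophage lists and for Tgfb1 1420653_at and 1445360_at. For the neutrophil, pericyte and smooth muscle, mast cell, and Schwann cell and melanocyte lists it lay between the other P28 arrays. Among the Tgfb2 probe sets it was the highest in 1438303_at and 1450923_at and the lowest in 1423250_a_at and 1450922_a_at. Such shared orders of 3 arrays were not tested. In P12 against P1, where Fst fell, 2 of 7 fibro-adipogenic genes fell, Pdgfra (-1.45) and Cd34 (-0.60), while the other 5 did not pass (-0.20 to 0.29). The mast cell genes Cpa3 (-2.03) and Cma1 (-2.06), the macrophage gene Cd68 (-1.38) and the pericyte gene Cspg4 (-0.74) fell as well, and 4 of 8 myofibre genes, 2 of 8 satellite cell genes and 2 of 6 pericyte and smooth muscle genes rose. In a sorted bulk sample fewer cells of a type and less RNA per cell cannot be told apart, and the part of these cell types in the changes of the members was not tested.

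**Figure D4:**
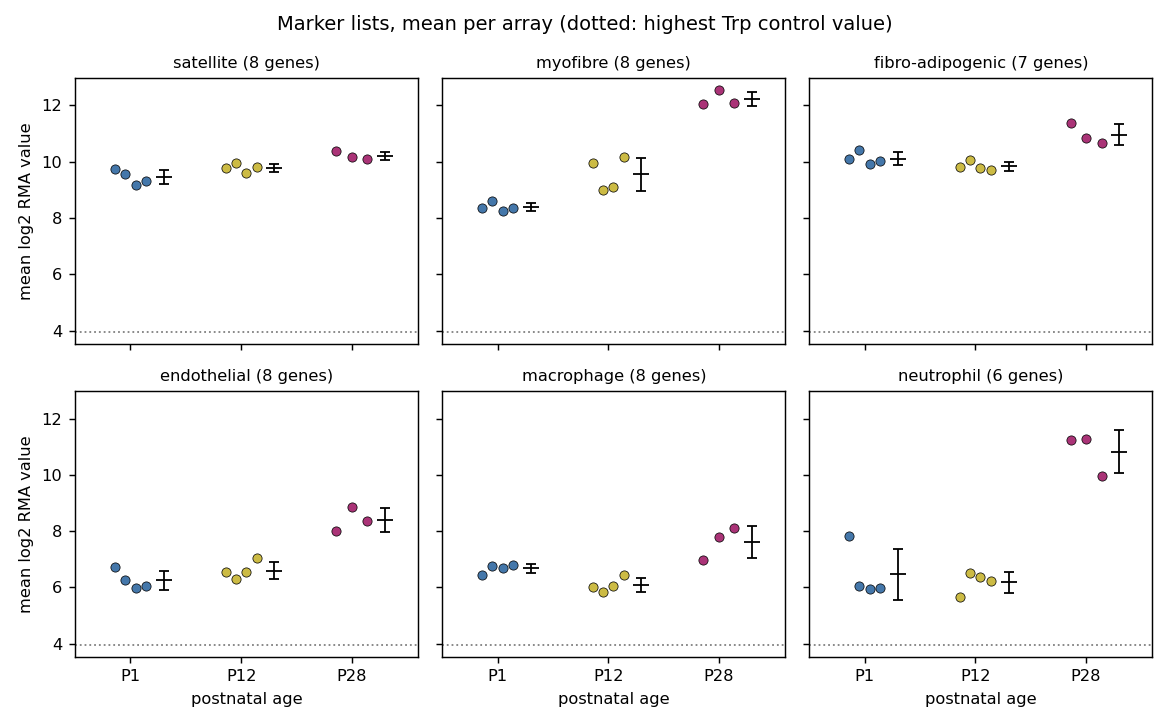
Mean log2 RMA value of 6 marker lists per array (points), with the mean and SD over arrays at P1 (4), P12 (4) and P28 (3), and the highest bacterial Trp control value as a dotted line. The P28 arrays lie above the P12 arrays for all 6 lists, by the most for the neutrophil list. In the satellite cell list, 2 of 8 genes rose.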

How the data were processed

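RNA from sorted GFP-positive cells was amplified, labelled with biotin and hybridised to Affymetrix mouse 3′ expression arrays, per the labels' protocols. The authors deposited 1 value per probe set and array, on the log2 scale, made with RMA. The submitters' processing notes name Affymetrix Expression Console, RMA and affy, with no versions or order. The values were used as deposited. Of 45101 probe sets, 64 controls were left out. Of the 45037 tested, 34945 had 1 gene symbol, 932 several and 9160 none. No filter on low values was used.

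Ages were compared with limma 3.58.1 in R 4.3.3 (lmFit on group means of all 11 arrays, contrasts, eBayes with 8 residual and 5.82 prior degrees of freedom), two-sided, with Benjamini-Hochberg adjustment over all probe sets. All members were reported. Of the pathway list, up to 4 called genes per direction and comparison with the largest change were named, and for each called member the genes with the smallest root mean square difference. The members and lists were chosen with earlier results of these data known. Replicates with the same number correlated in P12 and P1 (residual r of 0.143 to 0.311 over 4 pairs), so a replicate block was run as an alternative. Arrays with different numbers correlated at up to 0.247, the positive values all within replicates 1 and 2 or within 3 and 4. A pairing by number therefore cannot be told from these 2 sets of arrays, and the main tests used no block. In P28 against P12, arrays of the same number had r of -0.122 to 0.0275. Alternatives were other scalings, probe set choices, weights and priors, a replicate block, an RNA quality covariate, sets of arrays split by that quality, and each array left out in turn. The number of arrays limits the precision.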

Additional observations from a re-analysis of the deposited data

Results flagged for a closer look

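In the 42 groups of 4 arrays checked (21 probe sets at P1 and at P12), 1 array stood apart from its group. Inhba probe set 1458291_at had 4.56 in P12 replicate 4, while the nearest other P12 array had 4.88 and the highest 4.94, so its gap was 0.829 of the range of the group. Chance flags about 1 group in 20.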

How the results depend on the processing

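Over the alternatives, 1374 changes of the member probe sets were recomputed: 1312 kept their side of the threshold, 46 no longer passed and 16 newly passed. Of those that passed in the main fit or in the alternative, 0 changed sign. Changes that passed in neither were not compared by sign. Some of them did change it, such as Tgfb2 1423250_a_at in P12 against P1 (0.03, and as low as -0.13). With the replicate block, Fst 1421365_at in P12 against P1 was -0.74 with an adjusted p of 0.0510, so that 1 member probe set fell. With the 3′ to 5′ covariate, 2 member and 7 pathway probe sets fell in P28 against P12 (3751 of all) and 1 and 12 in P28 against P1 (4362 of all), and 2371 rose in P12 against P1. In P12 against P1 the pathway list had 7 falls after quantile normalization and in a fit of those ages alone, and array weights gave 2199 rises over all probe sets. With array set as a block there were 10 pathway falls, 2789 rises and 1276 falls in all. Within array set 1 there were 0 member falls, 1 pathway rise and 0 falls, and 137 rises and 93 falls in all, and within set 2 there were 1 member and 2 pathway falls. Counting 1 probe set per gene gives smaller counts because genes are counted: 6 members by the F test, 1 member fall, 5 pathway rises, 824 rises and 371 falls in all in P12 against P1, 5 and 1 members, 27 and 8 pathway genes and 2860 and 2856 of all in P28 against P12, and 5 and 1, 28 and 10, and 3664 and 2992 in P28 against P1. With the mean of the probe sets of a gene these were 7, 1, 4, 865 and 388, then 6 and 1, 30 and 11, and 3120 and 2736, then 5 and 1, 29 and 12, and 3933 and 2988. Leaving out each array in turn gave, in P12 against P1, 0 to 2 member falls, 4 to 9 pathway rises, 1 to 7 pathway falls, 635 to 1556 rises and 371 to 718 falls in all. It gave 9 to 11 member rises and 3 to 4 falls with 10 to 19 pathway falls in P28 against P12, and 7 to 11 member rises and 2 to 4 falls in P28 against P1, with 10 to 14 member probe sets by the F test. Signal near the Trp controls limits 1422019_at of Tgfbr2, 1447547_at of Ltbp1 and 1437833_at of Ltbp3, and P28 allowed no fit with a batch term.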
